A study of Mus musculus with 13 samples.

Results

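Genes that start, reverse or run beside the phosphorylation of eIF2alpha were followed across fat of mice carrying an activatable PERK kinase. They are the 4 eIF2alpha kinase genes Eif2ak1, Eif2ak2, Eif2ak3 and Eif2ak4, the eIF2alpha gene Eif2s1, the phosphatase subunit genes Ppp1r15a and Ppp1r15b, and the unfolded protein response genes Ern1, Atf6 and Xbp1. A probe belonged to the set if the RefSeq record named in the scanner files maps to 1 of these 10 genes. This gave 11 probes among 55681 non-control probes on the array, for 10 genes among 19752 that could be named. Eif2s1 had 2 probes and each other gene had 1.

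White fat (WAT) and brown fat (BAT) of male C57BL/6J mice were hybridised to 13 one-colour arrays, of which 12 could be placed in 5 groups. White fat came from Fv2E-PERK mice 12 h after an intraperitoneal injection of AP20187 at 100 ng/g (3 arrays), from Fv2E-PERK mice 12 h after vehicle (2 arrays) and from untreated wild-type mice (3 arrays). Brown fat came from Fv2E-PERK mice 12 h after AP20187 at the same dose (2 arrays) or vehicle (2 arrays). Fv2E-PERK fuses the kinase domain of PERK to a domain that the ligand AP20187 dimerises, and the design text calls the transgene mAP::Fv2E-PERK. No wild-type mice received AP20187 and no wild-type brown fat was measured, so the ligand and the activated kinase cannot be told apart. The cells that express the transgene are not given in the sources used here, the animals' ages are not given either, and the protocol speaks of muscles although every label names fat. Nothing in the labels ties each array to an animal of its own, and the spread behind every p-value may therefore be technical.

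Phosphorylation of eIF2alpha lowers the initiation of most protein synthesis while a few mRNAs, Atf4 among them, are translated more. PERK (Eif2ak3) responds to stress of the endoplasmic reticulum, GCN2 (Eif2ak4) to lack of amino acids, PKR (Eif2ak2) to double-stranded RNA and HRI (Eif2ak1) to lack of heme. GADD34 (Ppp1r15a), which the response itself can induce, and CReP (Ppp1r15b), which is made without stress, bring protein phosphatase 1 to eIF2alpha and remove the phosphate. IRE1alpha (Ern1) and ATF6 (Atf6) are the other sensors of the endoplasmic reticulum, and IRE1alpha splices the Xbp1 mRNA. An array level measures mRNA: it shows neither kinase activity, nor phosphorylation, nor splicing of Xbp1.

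The promoter of Ppp1r15a is shown because it was the only member promoter that held any of the 5 stress motifs searched. RefSeq promoters (assembly GRCm38.p6, 250 bases before to 50 after the start site) were at hand for 8 of the 10 genes, Atf6 and Ppp1r15b being the other ones. Both strands were searched for the C/EBP-ATF element TGATGNAA, the unfolded protein response element TGACGTGG, the cyclic AMP response element TGACGTCA, and the endoplasmic reticulum stress elements ERSE and ERSE-II. Among all 32851 promoters of that length, 3.97% held TGATGNAA, 0.676% TGACGTGG, 1.79% TGACGTCA, 0.119% ERSE and 0.0365% ERSE-II. The sequence gives the 100 bases before the start site, on the minus strand, at chr7:45526269-45526368 of GRCm38.p6, with the cyclic AMP response element in capitals at positions -12 to -5 from the start site.
Ppp1r15a: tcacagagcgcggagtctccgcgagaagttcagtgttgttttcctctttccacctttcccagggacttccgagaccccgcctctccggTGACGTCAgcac
A match describes these letters and is not evidence of binding.

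All levels below are log2 processed signals minus the 75th percentile of the array, so 1 unit is a doubling and 0 is a fairly bright probe. Every level compares arrays for 1 probe, never 1 probe with another. The labels fitted the tissues: Ucp1, the uncoupling protein of brown fat, lay between 9.87 and 10.63 on the BAT arrays and between -7.23 and -3.41 on the WAT arrays. The 6 adipocyte markers were all above background on every array. WAT AP20187 array 1 stood apart. Its 11 measured epididymis markers were all above background with a mean of 7.46, against a mean of -0.30 on AP20187 array 2 (9 of 11 above background), -4.94 on array 3 (3 of 11) and -5.74 to -2.30 on the vehicle and wild-type WAT arrays (2 to 6 of 11). The same array had the lowest mean of the WAT arrays for adipocyte markers (7.09, the others 7.72 to 8.53), endothelial markers (0.48, the others 1.84 to 2.18) and macrophage markers (1.49, the others 2.79 to 3.81). Bright spots, those above 1 in the median of the tissue's other arrays, counted as lost when more than 3 below that median. This limit does not tell a failed spot from a lower RNA level. Lost spots made up 3.07%, 3.28% and 1.16% of the bright spots on WAT AP20187 arrays 1 to 3, against 0.00817% to 0.0571% on the other WAT arrays. Slide 1 held the 3 wild-type arrays and WAT vehicle array 1, slide 2 the 3 WAT AP20187 arrays and WAT vehicle array 2, and slide 3 all BAT arrays.

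In fat given AP20187 none of the 11 probes passed the test against vehicle, in either tissue. Hardly any probe did: 0.0245% of all tested probes passed in white fat and 0.00307% in brown fat. The closest of the 11 in white fat were both phosphatase subunit genes, at 1.70-fold for Ppp1r15a and 1.48-fold for Ppp1r15b. The 1 probe that passed in any of the 6 comparisons was Ppp1r15b, which was 2.38-fold higher in vehicle brown fat than in vehicle white fat. In that comparison 21.2% of all probes passed, and tissue and slide cannot be told apart. All 11 probes were well above background on all 12 arrays, apart from 1 probe of Eif2s1 on 1 array.

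**Figure D1:**
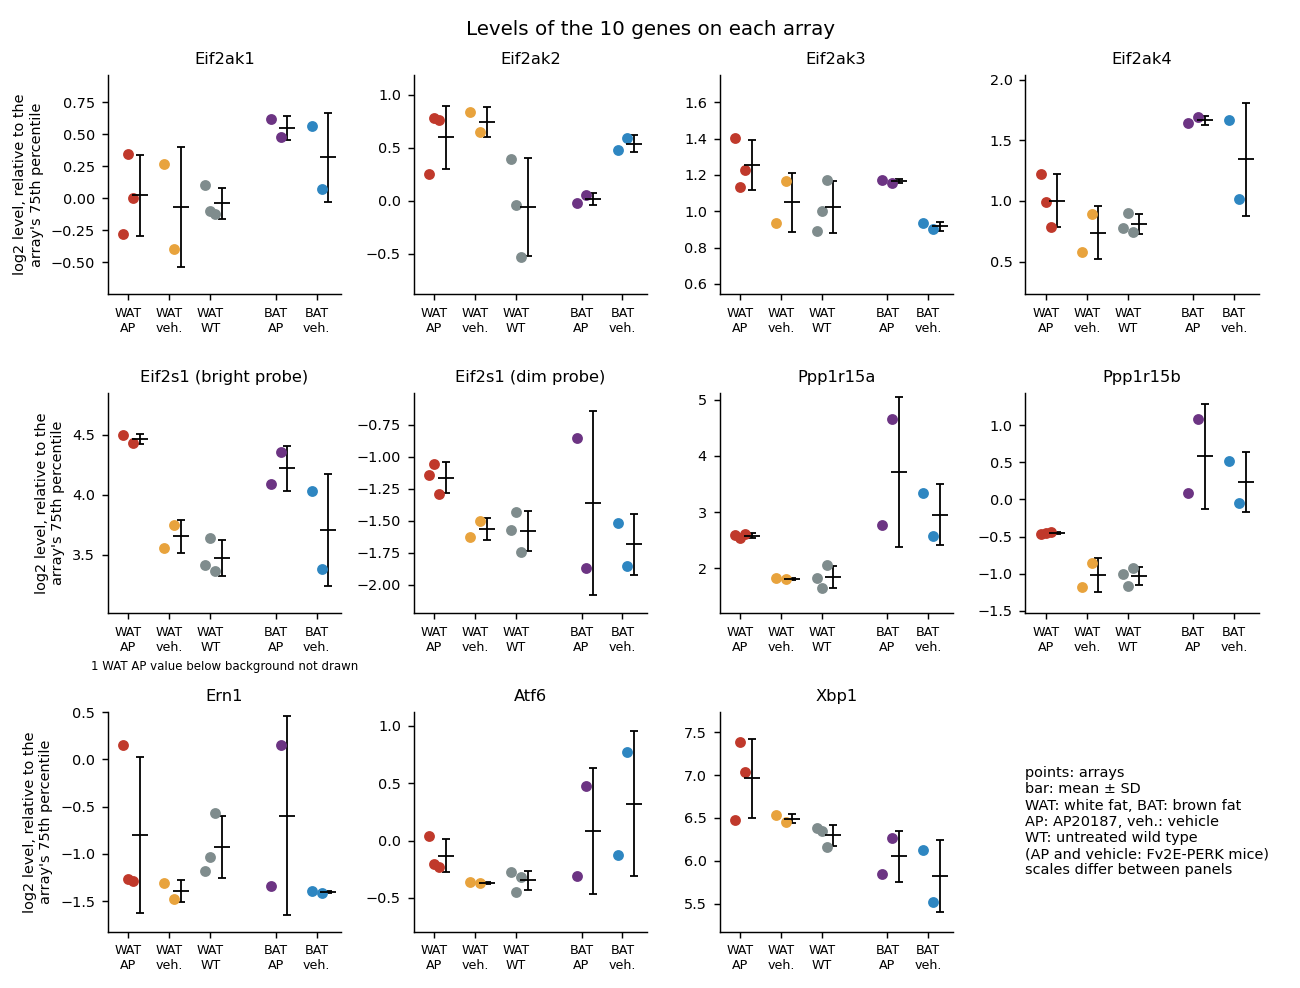
Level of each of the 11 probes (vertical axis, log2 relative to the array's 75th percentile, a scale of its own in each panel) on the 12 arrays in 5 groups (horizontal axis). Points are arrays and bars give mean ± SD. The 3 white fat arrays with AP20187 lie above all vehicle and wild-type white fat arrays for Ppp1r15a, Ppp1r15b, Atf6 and the dim Eif2s1 probe. For the bright Eif2s1 probe 1 value, below background at -6.25, is not drawn.

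Among the kinases, Eif2ak3 was the gene whose kinase domain the transgene carries. Its level was 1.40, 1.13 and 1.23 in white fat with AP20187, 0.93 and 1.16 in white fat with vehicle, and 0.89, 1.0 and 1.17 in untreated wild-type white fat. In brown fat it was 1.17 and 1.16 with AP20187, against 0.93 and 0.90 with vehicle. The white fat groups overlapped, whereas both brown fat arrays with AP20187 lay above both with vehicle. The log2 change with AP20187 was 0.21 in white fat (SE 0.16, adjusted p = 0.487 by limma) and 0.25 in brown fat (SE 0.18, adjusted p = 0.871). In white fat this was 0.09 without vehicle array 1, 0.32 without vehicle array 2, and -0.03 when the percentile was taken over probes above background on all arrays. Vehicle Fv2E-PERK white fat and wild-type white fat differed by 0.03 (95% interval -0.35 to 0.40). The files give the probe (A_55_P2048744) a transcript accession but neither a sequence nor a position in the transcript, so whether it lies in the stretch that Fv2E-PERK carries could not be found. Its level therefore does not check which mice carried the transgene.

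The interferon-inducible kinase gene Eif2ak2 differed most among the kinases between vehicle Fv2E-PERK and wild-type white fat. It measured 0.26, 0.78 and 0.76 with AP20187, 0.84 and 0.65 with vehicle and 0.40, -0.04 and -0.53 in wild-type white fat. Both vehicle arrays lay above all 3 wild-type arrays, at 1.75-fold (log2 change 0.80, SE 0.28), with an unadjusted p of 0.0179 by limma and an adjusted p of 0.841. On slide 1, which holds all wild-type arrays, vehicle array 1 alone was 0.90 above them. With AP20187 the log2 change from wild type was 0.66 (SE 0.25, adjusted p = 0.1285) and AP20187 array 1 overlapped the wild-type arrays. In brown fat Eif2ak2 was -0.02 and 0.05 with AP20187, against 0.48 and 0.59 with vehicle. There the log2 change was -0.52 (SE 0.30, adjusted p = 0.812 by limma), the only non-overlapping difference of the 11 probes toward lower values in brown fat with AP20187.

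Eif2ak1 and Eif2ak4 did not pass the test with AP20187 in either tissue. Eif2ak1 averaged 0.02 ± 0.31 (SD, n = 3) in white fat with AP20187, -0.07 ± 0.47 (n = 2) with vehicle and -0.04 ± 0.12 (n = 3) in wild type. In brown fat it averaged 0.55 ± 0.10 with AP20187 and 0.32 ± 0.34 with vehicle (SD, n = 2 each). Eif2ak4 lay between 0.79 and 1.22 on the 3 white fat arrays with AP20187, at 0.58 and 0.89 with vehicle and between 0.75 and 0.90 on the 3 wild-type arrays. Its brown fat levels were 1.64 and 1.69 with AP20187, against 1.67 and 1.01 with vehicle, so that 1 vehicle array alone set the difference of the means. Log2 changes with AP20187 were 0.09 (95% interval -0.52 to 0.69) for Eif2ak1 and 0.26 (-0.25 to 0.78) for Eif2ak4 in white fat. The corresponding brown fat intervals ran from -0.43 to 0.89 and from -0.24 to 0.89.

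Eif2s1 encodes the alpha subunit of eIF2, the protein that the kinases phosphorylate, and it has a bright and a dim probe. The bright probe (A_55_P2184816) measured -6.25, 4.49 and 4.43 in white fat with AP20187, 3.55 and 3.75 with vehicle, and 3.41, 3.64 and 3.36 in wild type. The value of -6.25, on AP20187 array 1, was below background and carried no outlier flag. Of 23 bright spots around it, 1 also counted as lost on that array. The dim probe (A_55_P2184811) measured -1.15, -1.05 and -1.29 in white fat with AP20187, against -1.62 and -1.50 with vehicle and -1.57, -1.43 and -1.74 in wild type. On this probe all 3 AP20187 arrays, array 1 included, lay above the 5 other white fat arrays. Its log2 change from vehicle was 0.40 (SE 0.28, adjusted p = 0.431), and 0.17 to 0.19 under 3 of the 4 other scalings.

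With the lost value in the fit, the bright probe's log2 change in white fat was -2.76 from vehicle (SE 2.69) and -2.58 from wild type (SE 2.40). Without that value, an alternative chosen after the data were seen, the change was 0.81 from vehicle (adjusted p = 0.112 by limma) and 0.99 from wild type (adjusted p = 0.0388 by limma), with both remaining AP20187 arrays above all other white fat arrays. In brown fat the bright probe measured 4.09 and 4.35 with AP20187, against 4.03 and 3.38 with vehicle. The dim probe was -0.86 and -1.87 with AP20187, against -1.52 and -1.85 with vehicle, and these groups overlapped.

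Ppp1r15a, the inducible phosphatase subunit, was higher without overlap in white fat with AP20187 than in the other white fat, but did not pass the test. Its level was 2.59, 2.54 and 2.62 with AP20187, 1.83 and 1.81 with vehicle, and 1.82, 1.66 and 2.06 in wild type. All 3 AP20187 arrays lay above the 5 others, as they did for Ppp1r15b, Atf6 and the dim Eif2s1 probe. Of all probes, 23.4% were higher without overlap against vehicle and 23.9% against wild type. The share above all 5 others was not counted. The log2 change was 0.76 from vehicle (SE 0.47, 95% interval -0.30 to 1.82, adjusted p = 0.370) and 0.73 from wild type (SE 0.42, adjusted p = 0.290). With the percentile over probes above background on all arrays, these were 0.53 and 0.41. Within slide 2 the 3 AP20187 arrays were 0.78 above vehicle array 2. Vehicle Fv2E-PERK and wild-type white fat differed by -0.03 (95% interval -1.09 to 1.03).

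In brown fat Ppp1r15a varied more between arrays of 1 group than between groups. It was 2.78 and 4.66 with AP20187, against 3.35 and 2.57 with vehicle. The difference of the means was 0.76 (SE 0.51, adjusted p = 0.857 by limma). AP20187 array 2 alone lay above both vehicle arrays: the change was 1.70 without AP20187 array 1 and -0.18 without AP20187 array 2. Since 1 spread is fitted over all groups, these brown fat arrays also set the SE for white fat. Without either brown fat AP20187 array in the fit, the adjusted p in white fat was 0.130 or 0.131.

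Ppp1r15b, the constitutive subunit, ran beside Ppp1r15a in white fat. Its level was -0.47, -0.45 and -0.44 with AP20187, -1.18 and -0.86 with vehicle, and -1.0, -1.17 and -0.93 in wild type. The 3 AP20187 arrays were above the 5 others. The log2 change was 0.57 from vehicle (SE 0.30, 95% interval -0.10 to 1.24, adjusted p = 0.297) and 0.58 from wild type (SE 0.26, adjusted p = 0.192 by limma). With the percentile over probes above background on all arrays, these were 0.33 and 0.26. Within slide 2 it was 0.41 above vehicle array 2. In brown fat Ppp1r15b measured 0.08 and 1.08 with AP20187, against 0.52 and -0.05 with vehicle, with AP20187 array 2 again the highest and a difference of 0.35 (SE 0.32). This was 0.85 without AP20187 array 1 and -0.15 without AP20187 array 2.

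Of the 3 genes of the other sensor branches, Ern1 was set by single arrays. It measured 0.15, -1.27 and -1.28 in white fat with AP20187, -1.31 and -1.47 with vehicle, and -1.18, -1.04 and -0.56 in wild type. In brown fat it was -1.34 and 0.15 with AP20187, against -1.40 and -1.41 with vehicle. The high values were AP20187 array 1 in white fat and AP20187 array 2 in brown fat, and the second-highest white fat value was wild-type array 3. The log2 change with AP20187 was 0.59 in white fat (SE 0.52, adjusted p = 0.524) and 0.81 in brown fat (SE 0.57, adjusted p = 0.863). Without AP20187 array 1 the white fat change was 0.11, and without AP20187 array 2 the brown fat change was 0.06.

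Markers of other tissues also differed between these arrays. The epididymis list had its highest mean on WAT AP20187 array 1 (7.46), its second-highest on AP20187 array 2 (-0.30) and its third-highest on wild-type array 3 (-2.30, 6 of 11 markers above background). Its summed level ranged from -0.21 to 11.97 over the WAT AP20187 arrays, from 0.02 to 0.58 over WAT vehicle and from 0.34 to 6.80 over wild type. In brown fat it ranged from -0.31 to -0.27 with AP20187 and from -0.82 to 0.12 with vehicle, with 1 of 11 markers above background on every BAT array. The part of the epididymis markers in the white fat level of Ern1 was not tested. The 6 skeletal muscle markers averaged 4.03 and 3.08 in brown fat with AP20187, against 0.59 and 4.80 with vehicle. Their summed level ranged from 7.54 to 8.50 with AP20187 and from 4.84 to 8.99 with vehicle. Their part in the brown fat levels of Ppp1r15a and Ppp1r15b was not tested. In white fat the same list had its highest mean, -0.77, on AP20187 array 2 (the others -3.91 to -2.64). The 6 liver markers had theirs on WAT vehicle array 2, at 4.52, against 0.27 to 2.13 on the AP20187 arrays, 0.59 on vehicle array 1 and -0.55 to 1.5 on the wild-type arrays. Their summed level ranged from 5.01 to 5.44 with AP20187, from 4.4 to 8.11 with vehicle and from 3.76 to 5.74 in wild type, with 5 or 6 of 6 above background on each WAT array. Without vehicle array 2, the white fat log2 change with AP20187 was 0.75 for Ppp1r15a and 0.73 for Ppp1r15b. In tissue samples, fewer cells of a type and less RNA per cell cannot be told apart.

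**Figure D2:**
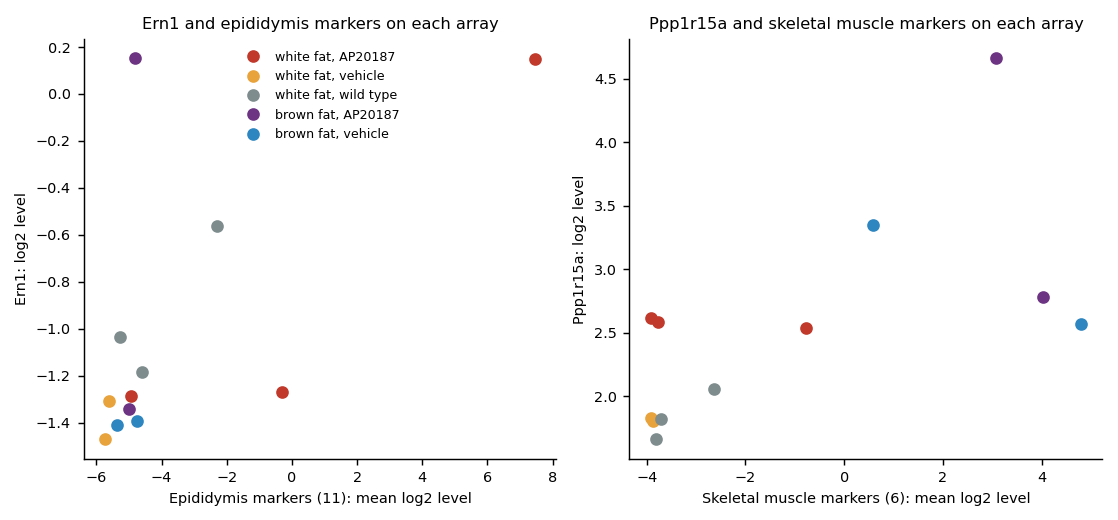
Left: Ern1 level (vertical, log2 relative to the array's 75th percentile) against the mean level of 11 epididymis markers (horizontal, log2) on 12 arrays. Right: Ppp1r15a level against the mean of 6 skeletal muscle markers. Points are arrays coloured by group; WAT AP20187 array 1 lies at 7.46 for the epididymis markers, and BAT AP20187 array 2, at 4.66 for Ppp1r15a, has a muscle mean of 3.08 between the other BAT arrays.

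Atf6, whose product is cut in the Golgi to release a transcription factor, averaged -0.13 ± 0.15 (SD, n = 3) in white fat with AP20187, -0.37 ± 0.01 (n = 2) with vehicle and -0.35 ± 0.09 (n = 3) in wild type. The AP20187 arrays lay between -0.23 and 0.04, above all 5 others, at a log2 change of 0.24 from vehicle (SE 0.30, adjusted p = 0.650). With the percentile taken over probes above background on all arrays, this change was 0.00387. In brown fat Atf6 was -0.30 and 0.48 with AP20187, against -0.13 and 0.77 with vehicle. The groups overlapped, and the log2 change of -0.24 was 0.21 without BAT vehicle array 3.

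Xbp1, the mRNA that IRE1alpha splices, was at 6.47, 7.39 and 7.03 in white fat with AP20187, 6.53 and 6.45 with vehicle, and 6.38, 6.35 and 6.16 in wild type. AP20187 arrays 2 and 3 were above all others, and array 1 lay between the 2 vehicle arrays. Its log2 change was 0.47 from vehicle (SE 0.29, adjusted p = 0.373) and 0.67 from wild type (SE 0.26, adjusted p = 0.139). Without AP20187 array 1 these were 0.72 (adjusted p = 0.104) and 0.91 (adjusted p = 0.0309). The direction against vehicle depended on the scaling: it was -0.02 by quantile scaling and -0.08 when normexp preceded it. Against wild type the change with all arrays stayed positive but was 0.04 by normexp and quantile scaling. In brown fat Xbp1 measured 5.84 and 6.26 with AP20187, against 6.12 and 5.52 with vehicle. The log2 change there was 0.23, but -0.07 without BAT vehicle array 3.

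**Figure D3:**
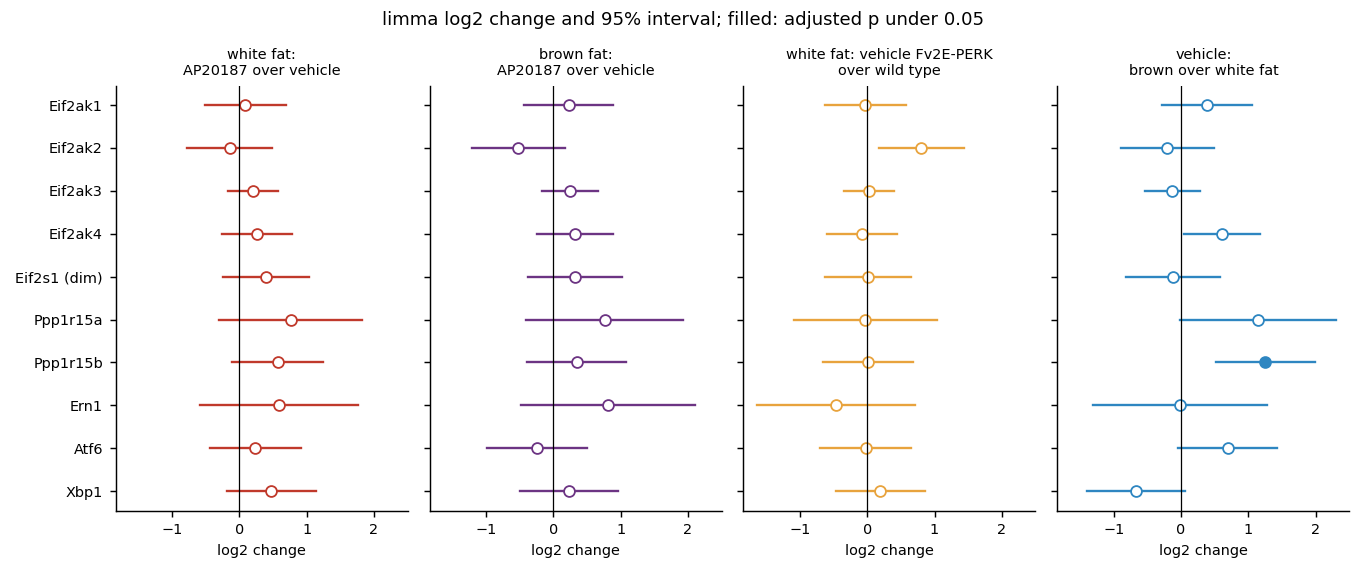
Log2 change (horizontal) with its 95% interval from limma for 10 of the 11 probes in 4 comparisons, 1 panel each. The bright Eif2s1 probe is left out because 1 lost value makes its intervals wider than the axis. A filled point marks an adjusted p under 0.05, which holds for Ppp1r15b in vehicle brown over vehicle white fat.

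Set against all probes, the shares of the 10 genes were as follows. In white fat with AP20187 against vehicle, 0 of 11 probes passed at a background of 0.0245% of 32625 tested probes, and 0 of 11 had an unadjusted p under 0.05, where 21.7% of all probes did. Their median log2 change was 0.26, against 0.11 over all probes. With the percentile over probes above background on all arrays, it was 0.03, against -0.13 over all probes. As reported, 5 of 11 were higher without overlap, where 23.4% of all probes were. In brown fat with AP20187 against vehicle, 0 of 11 passed at a background of 0.00307%, and 0 of 11 had an unadjusted p under 0.05, where 7.203% of all probes did. The median there was 0.32 against -0.03 over all probes, with 3 of 11 probes higher and 1 lower without overlap, where 15.8% and 20.7% of all probes were. In limma's test of the difference between the 2 AP20187 responses, 0 of 11 probes passed and 0 had an unadjusted p under 0.05, against a background of 0% passed and 15.9% with an unadjusted p under 0.05. For Ppp1r15a the response in brown fat minus that in white fat was -0.00076 with a 95% interval from -1.57 to 1.57.

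Vehicle Fv2E-PERK white fat was set against untreated wild-type white fat to see what the transgene, the vehicle and the injection did together. None of the 11 probes passed, at a background of 0.0398%, and 1 (Eif2ak2) had an unadjusted p under 0.05, where 4.97% of all probes did. Without overlap, 2 of 11 were higher and 1 lower, where 19% and 15% of all probes were. The median log2 change was 0.01, against 0.02 over all probes, and with the percentile over probes above background on all arrays both were -0.07. In AP20187 Fv2E-PERK against wild-type white fat, which share no slide, the background was 7.53% and 0 of 11 probes passed. Eif2ak2 and Xbp1 had unadjusted p-values under 0.05, as 27.6% of all probes did. Without overlap, 5 of 11 were higher and 0 lower, where 23.9% and 12.4% of all probes were. The median log2 change was 0.23, against 0.12 over all probes, and with the percentile over probes above background on all arrays it was -0.09, against -0.20. The comparisons with vehicle and with wild type use the same 3 AP20187 arrays.

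Brown and white fat differed most. With vehicle alone, 21.2% of all probes passed between the tissues, and 1 of 11 member probes did. Without overlap, 4 of 11 were higher and 2 lower in brown fat, where 37.2% and 30.3% of all probes were. Tissue and slide cannot be told apart, because all BAT arrays lie on slide 3. Ppp1r15b was 0.52 and -0.05 in vehicle brown fat, against -1.18 and -0.86 in vehicle white fat, which is 2.38-fold higher (log2 change 1.25, SE 0.32, adjusted p = 0.0256 by limma). It did not pass without BAT vehicle array 2 (0.97, adjusted p = 0.149), WAT vehicle array 1 (1.09, adjusted p = 0.130) or WAT vehicle array 2 (1.41, adjusted p = 0.0659). Ppp1r15a measured 2.20-fold higher (log2 change 1.14, SE 0.51, adjusted p = 0.150) without overlap. It passed when either BAT AP20187 array was left out, at adjusted p = 0.0221 and 0.0222, with the same log2 change, and was 0.75 (adjusted p = 0.509) without BAT vehicle array 2.

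Xbp1 was 6.12 and 5.52 in vehicle brown fat, against 6.53 and 6.45 in vehicle white fat. This log2 change of -0.67 (SE 0.32, adjusted p = 0.172 by limma) passed under 3 other scalings: -1.25 by quantiles, -1.32 by normexp followed by quantiles, and -0.91 with the percentile over probes above background on all arrays. Without BAT vehicle array 3 it was -0.37. Atf6 was higher in brown fat by 0.69 (SE 0.33, adjusted p = 0.170), with no overlap, but by 0.24 without BAT vehicle array 3 and by 1.14 without BAT vehicle array 2. Eif2ak4 was higher by 0.61 (SE 0.25, adjusted p = 0.121), also with no overlap, and was 0.28 (adjusted p = 0.550) without BAT vehicle array 2 and 0.93 (adjusted p = 0.0373) without BAT vehicle array 3. Eif2ak3 and Ern1 overlapped between the tissues, at -0.13 (95% interval -0.54 to 0.28) and -0.01 (-1.30 to 1.28).

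**Figure D4:**
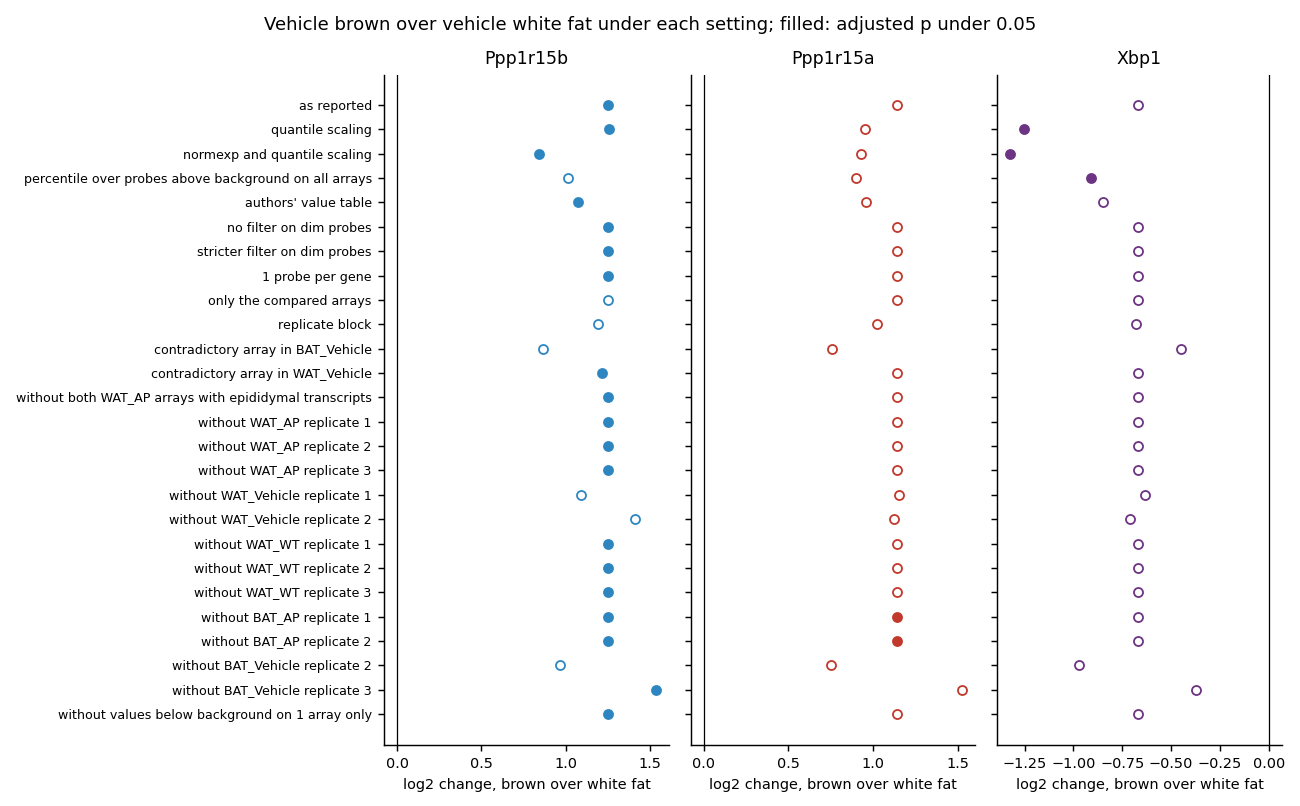
Log2 change of Ppp1r15b, Ppp1r15a and Xbp1 in vehicle brown over vehicle white fat (horizontal) under the reported setting and each alternative (rows). Filled points have an adjusted p under 0.05. All 3 genes keep their sign in every row shown, Ppp1r15b passes in the top row at 1.25, and Xbp1 passes with the 3 scalings that give it -0.91 to -1.32.

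Across the 5 groups, the order of the means differed between genes. Both phosphatase subunits were highest in the brown fat groups, then in white fat with AP20187, then in the other white fat. Their means in brown fat were 3.72 with AP20187 and 2.96 with vehicle for Ppp1r15a, and 0.58 and 0.23 for Ppp1r15b, and these neighbours overlapped. Vehicle brown fat and white fat with AP20187 overlapped for Ppp1r15a, not for Ppp1r15b. Vehicle and wild-type white fat overlapped as well, at means of 1.82 and 1.85 for Ppp1r15a and -1.02 and -1.03 for Ppp1r15b. For Xbp1 the tissues came in the other order, with white fat above brown fat. Its means were 6.96 in white fat with AP20187, 6.49 with vehicle and 6.30 in wild type. In brown fat they were 6.05 with AP20187 and 5.82 with vehicle. Within each tissue the mean with AP20187 was thus above that with vehicle, as for the phosphatase subunits, but these Xbp1 groups overlapped. Brown fat with AP20187 also reached 6.26, above the lowest wild-type white fat array at 6.16. Against vehicle, 9 of 11 probes had a positive change in each tissue. Of all probes, 56.5% did in white fat and 46.3% in brown fat. For Eif2ak3 the 5 means lay between 0.92 and 1.25.

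A list of 40 further genes of the same machinery was counted beside the 10. It holds the other eIF2 and eIF2B subunits, phosphatase 1 catalytic subunits, regulators of the kinases, chaperones that bind the sensors, and downstream genes of the 3 branches. Each gene was read from its tested probe with the highest mean level, whereas values over all probes count every tested probe. In white fat with AP20187 against vehicle, 37 of 40 had a positive change and 0 passed, with a median log2 change of 0.46 against 0.11 over all probes, of which 56.5% were positive. Under 4 other scalings 31 to 34 of the 40 were positive, with medians of 0.21 to 0.28. Atf4, the transcription factor translated more when eIF2alpha is phosphorylated, was at 6.71, 7.12 and 7.05 with AP20187, against 6.05 and 6.06 with vehicle (1.87-fold, adjusted p = 0.226). Hspa5, the chaperone BiP that holds the sensors inactive, was at 7.78 and 7.22 on AP20187 arrays 1 and 3, its spot on array 2 having been flagged, against 6.56 and 6.89 with vehicle (1.71-fold, adjusted p = 0.118). Dnajb9, a target of spliced Xbp1, was 1.41-fold higher (adjusted p = 0.148). Ddit3 (CHOP), Trib3, a target of ATF4 and CHOP, and Dnajc3, an inhibitor of eIF2alpha kinases, measured 1.28-fold, 1.64-fold and 1.05-fold.

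Against wild type, 7 of the 40 rose in white fat with AP20187 and 0 fell, where 7.53% of all probes passed. The 6 largest were Hspa5 (3.05-fold, adjusted p = 0.0293 by limma), the eIF2B subunit Eif2b2 (1.88-fold, 0.0320), the translocon subunit Sec61b (1.86-fold, 0.0320), Dnajb9 (1.79-fold, 0.0316), the phosphatase catalytic subunit Ppp1cc (1.75-fold, 0.0316) and Eif5 (1.72-fold, 0.0351), which acts on eIF2 at start codons. Hspa5, Sec61b, Dnajb9 and Eif2b2 were highest on AP20187 array 1, where the epididymis markers averaged 7.46. Hspa5 was at 7.78 there and 7.22 on array 3. Sec61b was at 7.08 on array 1, against 6.68 and 6.55 on arrays 2 and 3, and Dnajb9 at 3.07, against 2.78 and 2.86. Ppp1cc and Eif5 were highest on array 2. The part of the epididymis markers in these levels was not tested. None of the 40 passed in 9 of 26 alternatives, among them those without wild-type array 1, 2 or 3, with quantile scaling, with only the compared arrays and with slide as a block, and 1 passed without AP20187 array 2. As reported 36 of 40 were positive with a median log2 change of 0.54, and under 4 other scalings 28 to 31 were, with medians of 0.23 to 0.29 and 0 or 1 passing. In vehicle Fv2E-PERK against wild-type white fat, 29 of 40 were positive and 0 passed, where 52.3% of all probes were positive. This count depended on the scaling: 18 to 20 of 40 were positive under 4 others, with medians between -0.01 and 0.0023. Hspa5 was at 6.56 and 6.89 with vehicle, against 5.87, 5.81 and 6.00 in wild type, and this 1.79-fold difference had an adjusted p of 0.667.

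In brown fat with AP20187, 26 of the 40 were positive and 0 passed, where 46.3% of all probes were positive, and the median log2 change was 0.08. Trib3 was at 6.47 and 8.20 with AP20187, against 3.0 and 2.56 with vehicle (23.5-fold, adjusted p = 0.195 by limma), and Ddit3 at 3.25 and 4.42, against 2.40 and 2.09 (log2 change 1.59, adjusted p = 0.458). Both groups were clear of each other for these genes. Atf4 was at 7.47 and 8.43 with AP20187, against 7.71 and 6.35 with vehicle, and overlapped. AP20187 array 2 was the highest BAT array for Trib3, Ddit3 and Atf4, as it was for Ppp1r15a and Ppp1r15b. Hspa5 was at 6.01 and 6.16 with AP20187, against 6.35 and 6.22 with vehicle (log2 change -0.20, adjusted p = 0.973). The difference of the responses, brown minus white, was 3.84 for Trib3 (adjusted p = 0.143) and -0.98 for Hspa5 (adjusted p = 0.218), and 0 of 40 passed.

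**Figure D5:**
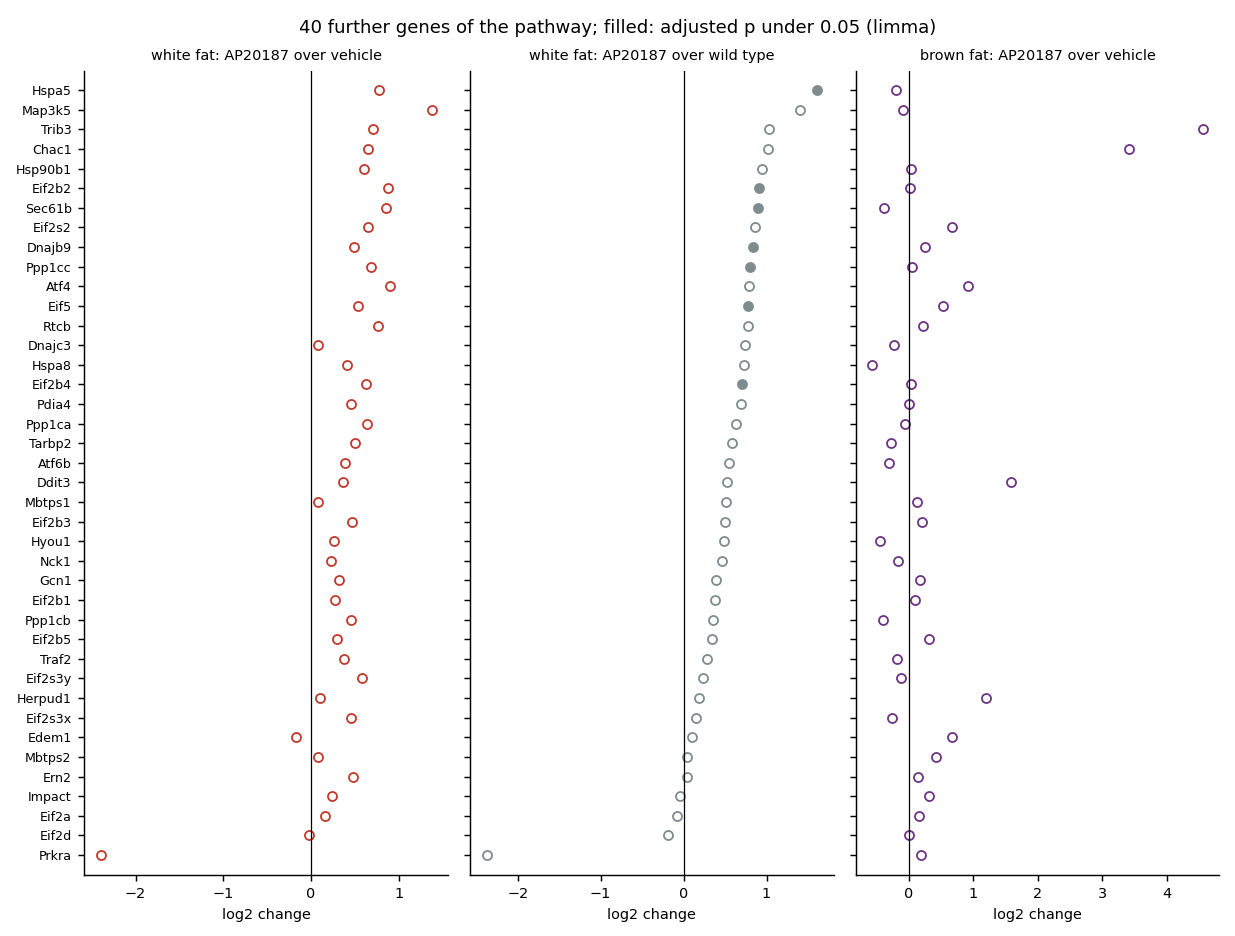
Log2 change (horizontal) of 40 further pathway genes (rows, ordered by the middle panel) in white fat with AP20187 over vehicle, white fat with AP20187 over wild type, and brown fat with AP20187 over vehicle. Filled points have an adjusted p under 0.05: 7 genes in the middle panel and 0 in each of the others.

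Between vehicle brown and vehicle white fat, 7 of the 40 were higher and 3 lower past the threshold, where 21.2% of all probes passed. Under 4 other scalings 4 to 6 were higher and 3 to 5 lower. The 6 largest differences were the phosphatase catalytic subunit Ppp1cb (3.90-fold higher), Impact, an inhibitor of GCN2 activation (log2 change -1.39), the chaperone Pdia4 (-1.31), the eIF2B subunit Eif2b4 (2.31-fold higher), Dnajc3 (-1.11) and the eIF2 subunit Eif2s3y (2.08-fold higher). Their adjusted p-values by limma lay between 0.00222 and 0.0457.

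Over the 8 grouped white fat arrays, the genes with the pattern most like 3 of the members were sought among 12065 named genes. For Ppp1r15a they were Lins1 (Pearson r = 0.992), Olfr1368 (0.991) and Dnajb9 (0.982), and Ppp1r15b had an r of 0.951. For Xbp1 they were Ptcd3, Elp4 and Pik3cb (0.993 each). For Eif2ak3 they were Pdlim4 (0.956), Trp53bp1 (0.950) and Sdk1 (0.948), while its r with Ppp1r15a was 0.742 and with Xbp1 0.176. The 8 points share arrays, 2 slides and 3 groups, so these values describe the arrays and carry no test.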

How the data were processed

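Total RNA of white and brown fat was labelled with Cy3 and hybridised to 13 one-colour arrays made by Agilent. The deposited intensity is, per the file headers, the scanner software's background-corrected processed signal on mm9, unscaled across arrays. The software was Agilent Feature Extraction 10.7.1.1, per the submitters' processing notes. The authors' value table, also intensity, equalled it within 0.1% for 98.95% to 99.15% of values and showed neither scaling nor centring. Its column medians ran from 32.8 to 105, with 14.9% to 40.4% of cells blank. The rule for the blanks is not given in the sources used here.

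Outlier-flagged spots were dropped, spots of a probe averaged, and log2 taken minus each array's 75th percentile. The 32625 probes that all arrays of some group had well above background were fitted with limma 3.58.1 in R 4.3.3 (lmFit, eBayes) over 12 arrays, p-values being adjusted by Benjamini-Hochberg and called at 0.05. The script was tested on simulated data. The 13th array was left out: its title says brown and its source name white fat. Names came from RefSeq (GRCm38.p6). The named genes are the 10 members, up to 6 per comparison of the 40 pathway genes (the largest changes past the threshold, else Atf4, Ddit3, Hspa5, Dnajc3, Trib3 and Dnajb9), and the 3 likest genes of 3 members. Members and lists were chosen with earlier results of these data known. Precision is limited by the few arrays per group. Alternatives covered scaling, background, filters, probes per gene, slide and replicate blocks, the 13th array and each array left out.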

Additional observations from a re-analysis of the deposited data

How the results depend on the processing

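The 66 probe changes (11 probes in 6 comparisons) were set against 1693 values under 26 alternatives. A value counted as the same if it passed both times in 1 direction. It also did if it passed neither time and moved by less than the spread between arrays. Many alternatives, such as leaving out an array outside the comparison, cannot move the log2 change. Of the 1693 values, 1600 counted as the same, 122 had the other sign, and 2 turned the direction of a change that then passed. Both were the bright Eif2s1 probe against wild type, at 0.99 without WAT AP20187 array 1 and at 0.99 without values below background on 1 array only, an alternative chosen after seeing the data. Leaving out 1 array in turn moved that change between -4.38 and 0.99 and the count of members passing against wild type between 0 and 2 (0 as reported). The 2, without AP20187 array 1, were Xbp1 and Eif2s1, and the added alternative gave 1. Between vehicle brown and white fat, 1 member passed as reported, with 0 to 2 when 1 array was left out, 2 with quantile scaling, 2 with normexp and quantile scaling, 0 with only the compared arrays and 0 with the array of contradictory labels in BAT vehicle. With the percentile over probes above background on all arrays 1 passed, Xbp1 in place of Ppp1r15b. Ppp1r15b passed in 18 of 25 alternatives, at 0.84 to 1.54. Many of these leave the values of the compared arrays as they were, and so its log2 change at 1.25. Arrays with equal replicate numbers had correlations of deviations of -0.22 to 0.095. With so few arrays per group, these values cannot decide whether such arrays are paired. With a replicate block 0 members passed between vehicle brown and white fat, Ppp1r15b being at 1.19 (adjusted p = 0.0636 by limma). The same block left 0 probes passing of all in AP20187 against wild-type white fat. Over all probes, calls in white fat with AP20187 against vehicle ranged from 0 to 10385, in brown fat from 0 to 194, in vehicle against wild type from 0 to 1175, in AP20187 against wild type from 0 to 12212, between the tissues from 0 to 17987 and for the difference of the responses from 0 to 544. The highest counts for white fat with AP20187 came with no filter on dim probes. The causes of these changes were not tested.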

Other observations

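The array with contradictory labels entered no comparison. It lay on slide 2. Its levels lay within the range of the vehicle and wild-type arrays of both tissues together for 10 of the 11 probes, among them Eif2ak3 at 1.04 and Ern1 at -1.41. Atf6, at -0.47, lay just below the lowest of them (-0.44). Ppp1r15a at 1.82, Ppp1r15b at -0.92 and Xbp1 at 6.49 lay within the vehicle and wild-type white fat arrays. They lay outside the vehicle brown fat arrays (2.57 to 3.35, -0.05 to 0.52 and 5.52 to 6.12). Both Eif2s1 probes, at -1.52 and 3.66, lay within the vehicle brown fat arrays and within the white fat ones. Which tissue the array holds was not tested.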
